A study of Mus musculus with 6 samples.

Results

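Aminoacyl-tRNA synthetases join each amino acid to its tRNA, the step that supplies the ribosome with its building blocks. Mammalian cells keep a set of these enzymes in the cytosol and another, also encoded in the nucleus, for the ribosomes inside mitochondria. A few genes, such as Gars and Kars, make both forms, and several cytosolic enzymes sit together in a multi-synthetase complex. Many cytosolic synthetase genes are known targets of ATF4, the transcription factor that cells make when amino acids run short or eIF2 is phosphorylated. The 36 genes described here were taken by name from the 54532 gene entries of the deposited table. Names ending in 2 were read as mitochondrial (16 genes), and the others as cytosolic or dual (20 genes).

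Messenger RNA was measured in RAW264.7, a mouse macrophage line. C/D cells were cultured for 3 d with GelMA (methacryloyl gelatin) carrying PEDOT:PSS, a conducting polymer blend, and PLLA/PDA, under ultrasound of 48 kHz for 5 min. Gel/S cells, the control, were cultured for 3 d in plain GelMA without ultrasound. Each group had 3 libraries. Material and ultrasound changed together and cannot be told apart, and nothing in the labels says that the replicates were separate cultures, so the p-values measure the spread between these libraries, which may be technical. The table's US_M columns were read as C/D because the labels apply ultrasound only to that group. The labels do not spell this out, and every direction below rests on that reading.

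The libraries held 12818831 to 15802627 counts in C/D and 15579679 to 16525699 in Gel/S. Mitochondrially encoded genes took 9.17% to 10.4% of the counts in C/D and 5.59% to 9.02% in Gel/S. Of 10 macrophage markers, 9 had a mean of at least 1 FPKM (fragments scaled to gene length and to library size). All 10 summed to 11020 to 11190 FPKM in C/D and 13540 to 14140 FPKM in Gel/S. Most of that sum was Lyz2, at 7922 to 8085 FPKM in C/D and 9627 to 10750 FPKM in Gel/S (edgeR adjusted p = 0.0649). Only Csf1r among these markers had an edgeR adjusted p under 0.05 (0.00736), with a fall of 0.48 on the log2 scale. No marker of fibroblasts, lymphocytes, epithelium or endothelium passed 0.0747 FPKM in any library. Of 8 osteoclast markers, 4 had a mean of at least 1 FPKM, and all 8 together summed to 46.6 to 52.3 FPKM in C/D and 52.4 to 55.1 FPKM in Gel/S. Within that sum Dcstamp, a fusion receptor, fell by 0.96 on the log2 scale, while Atp6v0d2, a proton pump subunit, rose by 0.83 and the phosphatase gene Acp5 by 0.53 (edgeR adjusted p = 6.29e-05, 0.00122 and 0.00818). The part of these shifts in the results below was not tested.

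Promoter sequences are shown for the synthetase genes that hold the C/EBP-ATF core, the element that ATF4 binds together with a C/EBP partner. The search covered RefSeq windows on GRCm38.p6, from 250 bases before to 50 bases after each gene's start, for TGATGNAA on either strand. Of the 36 genes, 27 had a window. The core was found in 5 of 13 cytosolic windows (38.5%), in 0 of 14 mitochondrial windows, and in 1304 of 32851 windows of all genes (3.97%). Aars carries it at 2 places, one before and one after its RefSeq start. Both lie inside the Aars span given further below, which begins at 111033144 on chr8. In Aars, Iars, Gars and Tars the core is on the opposite strand to the gene and so reads as its reverse complement below, and in Yars it is on the same strand. Each line below runs 5′ to 3′ on the gene's own strand, with the core in capitals.
Aars, chr8:111033704-111033763, plus strand: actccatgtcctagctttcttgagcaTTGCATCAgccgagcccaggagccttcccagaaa
Aars, chr8:111033840-111033869, plus strand: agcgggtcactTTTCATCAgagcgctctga
Iars, chr13:49682126-49682155, plus strand: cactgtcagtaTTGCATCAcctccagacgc
Yars, chr4:129189895-129189924, plus strand: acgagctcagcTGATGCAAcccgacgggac
Gars, chr6:55037941-55038000, plus strand: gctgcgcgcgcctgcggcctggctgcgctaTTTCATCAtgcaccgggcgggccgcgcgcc
Tars, chr15:11399659-11399718, minus strand: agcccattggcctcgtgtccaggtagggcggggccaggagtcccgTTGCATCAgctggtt
A match describes these letters only and is not evidence of binding. The E-box CACGTG, searched after the data were seen, was present in 4 of 13 cytosolic windows (Aars, Farsb, Iars and Tars), in 1 of 14 mitochondrial windows (Ears2) and in 7.15% of all windows.

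Cytosolic synthetase transcripts were lower in C/D than in Gel/S for 7 of 20 genes, and none was higher. The 7 are Hars, Iars, Wars, Aars, Dars, Vars and Yars, which charge the tRNAs of histidine, isoleucine, tryptophan, alanine, aspartate, valine and tyrosine. Among the 16 mitochondrial genes, 1 rose, Mars2, the mitochondrial methionyl-tRNA synthetase, and none fell. The calls are from edgeR's quasi-likelihood test on counts with Benjamini-Hochberg adjustment over all 11708 genes tested, at an adjusted p under 0.05. Of all genes tested, 13.9% fell and 13.1% rose by the same rule. At an unadjusted p under 0.05 by the same test, 9 of 20 cytosolic and 2 of 16 mitochondrial genes passed, beside 4800 of all 11708 genes. All 36 genes had been tested, so the filter on low values removed none.

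The median log2 fold change, C/D over Gel/S, was -0.18 over the 20 cytosolic genes, with a range of -0.57 to 0.13, and 16 of the 20 lay below 0. It was -0.04 over the 16 mitochondrial genes, with a range of -0.37 to 0.85, and 0.01 over all genes tested. Without C/D 2, without C/D 3 or without Gel/S 3 the number of cytosolic genes that fell was 4. Calls became fewer among all genes too, where 876, 1006 and 1005 of 11708 fell in those fits, beside 1631 with all libraries. By limma on log2(TPM + 1), a scaling added after the data were seen, 633 of all genes rose and 1510 fell, beside 1532 and 1631 by edgeR, and the median of all genes moved to -0.12; relative to that, the cytosolic median was -0.19 and the mitochondrial one -0.03. In FPKM as deposited, 14 cytosolic genes had every C/D library below every Gel/S library, none had the reverse, and 6 overlapped. Of all genes tested, 27.1% had every C/D library below and 19.1% every C/D library above. Of the mitochondrial genes, 2 lay below (Aars2 and Wars2), 2 above (Hars2 and Mars2) and 12 overlapped.

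**Figure D1:**
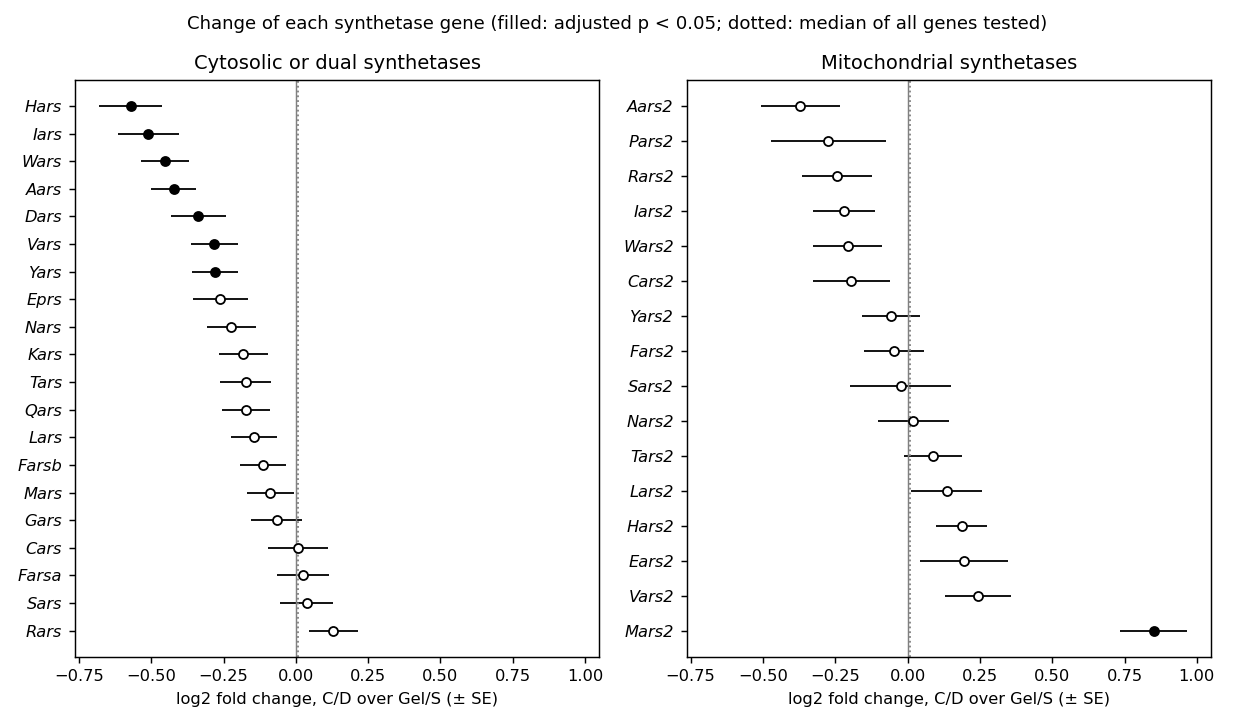
Log2 fold change (horizontal axis, C/D over Gel/S, ± SE) of the 20 cytosolic or dual and the 16 mitochondrial synthetase genes, from edgeR on 3 libraries per group; filled points passed an adjusted p of 0.05 and the dotted line is the median of all genes tested. Cytosolic genes run from -0.57 (Hars) to 0.13 (Rars), and Mars2 stands alone at 0.85 among the mitochondrial genes.

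Hars charges histidine tRNA and showed the lowest fold change of the 36 genes. It had 20.0, 24.7 and 22.4 FPKM in C/D 1 to 3, against 39.6, 31.0 and 32.3 FPKM in Gel/S 1 to 3. Every C/D library was below every Gel/S library, and Gel/S 1 was the highest of the 6. On the log2 scale it fell by 0.57 (SE 0.110, n = 3 per group; edgeR adjusted p = 0.00381).

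Iars, the isoleucyl-tRNA synthetase of the multi-synthetase complex, lies at chr13:49682100-49734267 on the plus strand (GRCm38). Its level was 14.7, 13.3 and 13.4 FPKM in C/D 1 to 3, against 23.9, 18.9 and 17.97 FPKM in Gel/S 1 to 3. The groups did not overlap, and Gel/S 1 again stood highest. Iars fell by 0.51 on the log2 scale (SE 0.106; edgeR adjusted p = 0.00532).

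Wars charges tryptophan tRNA and is also a well-known interferon-inducible gene. It lies at chr12:108860030-108894174 on the minus strand. Wars had 21.2, 19.4 and 18.6 FPKM in C/D 1 to 3, and 27.8 FPKM in each of the 3 Gel/S libraries. Gel/S libraries were almost equal here and all stood above C/D. The log2 fold change was -0.45 ± 0.0834 (SE; edgeR adjusted p = 0.00308). Of 10 other interferon-gamma target genes, 5 were expressed enough to be tested, and by the same test 0 of them changed, with 3 at an unadjusted p under 0.05 (4800 of 11708 among all genes) and a median log2 fold change of 0.25. The 2 with the smallest p were Irf1, a transcription factor (0.37, edgeR adjusted p = 0.0566), and Igtp, a GTPase (0.46, edgeR adjusted p = 0.0571).

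Aars, which charges alanine tRNA, lies at chr8:111033144-111057664 on the plus strand. It measured 9.44, 8.82 and 9.49 FPKM in C/D 1 to 3, against 13.1, 12.8 and 12.4 FPKM in Gel/S 1 to 3. Both groups were tight and far apart. Aars fell by 0.42 on the log2 scale (SE 0.0788; edgeR adjusted p = 0.00327). In GENCODE M21, 15.1% of its exon bases are shared with Exosc6 on the same strand or with Gm24103, and both of these are listed at 0 in all libraries. How reads on shared bases were assigned is not stated in the sources used here.

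Dars, the aspartyl-tRNA synthetase of the complex, lies at chr1:128363707-128417368 on the minus strand. Its level was 23.8, 25.7 and 25.8 FPKM in C/D 1 to 3, against 36.4, 28.5 and 33.1 FPKM in Gel/S 1 to 3. C/D libraries were all lower, with Gel/S 2 the nearest to them. The log2 fold change was -0.34 ± 0.0957 (SE; edgeR adjusted p = 0.0233). Its call was lost without C/D 1, C/D 2, C/D 3 or Gel/S 3, and with limma on TPM, with edgeR or limma adjusted p-values up to 0.0876.

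Vars, which charges valine tRNA, lies at chr17:35000987-35016322 on the plus strand. It had 32.9, 34.6 and 34.7 FPKM in C/D 1 to 3, against 44.7, 41.8 and 41.5 FPKM in Gel/S 1 to 3. The ranges were separate. Vars fell by 0.28 on the log2 scale (SE 0.0811; edgeR adjusted p = 0.0245). Its call was lost without C/D 1, C/D 2, C/D 3 or Gel/S 3, and with the replicate number as a block (edgeR adjusted p up to 0.0865).

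Yars, which charges tyrosine tRNA, lies at chr4:129189760-129219607 on the plus strand. It had 14.0, 13.4 and 13.2 FPKM in C/D 1 to 3, against 17.2, 17.5 and 16.0 FPKM in Gel/S 1 to 3. All C/D values were lower. Yars fell by 0.28 on the log2 scale (SE 0.0803; edgeR adjusted p = 0.0244). The Yars call was lost without C/D 2, C/D 3 or Gel/S 3 (edgeR adjusted p up to 0.0989).

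Mars2 has a single exon of 11294 bases at chr1:55237177-55248470 on the plus strand (GRCm38), with no other annotated exon over it. It had 3.94, 4.27 and 4.60 FPKM in C/D 1 to 3, against 2.09, 2.70 and 2.52 FPKM in Gel/S 1 to 3. Every C/D library was above every Gel/S library. Mars2 rose 1.80-fold, which is 0.85 on the log2 scale (SE 0.116; edgeR adjusted p = 0.000631). Its change was the largest in size of the 36 genes under the edgeR test with TMM scaling.

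**Figure D2:**
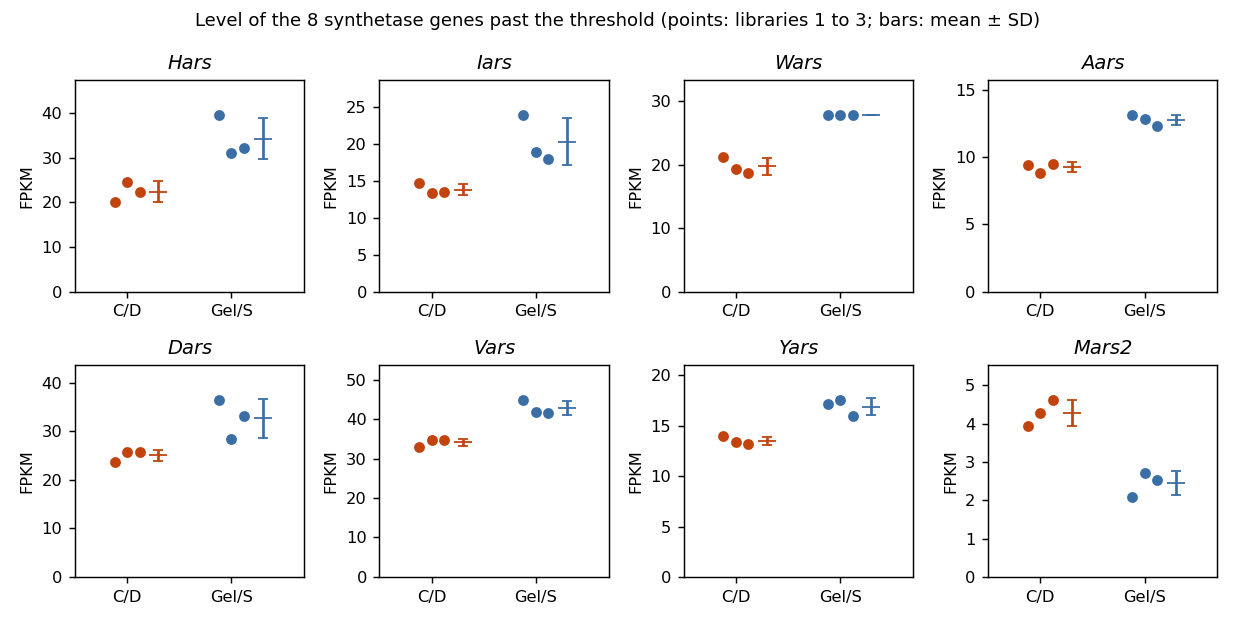
Level in FPKM (vertical axis, from 0) of the 8 synthetase genes past the threshold, with C/D left and Gel/S right in each panel; points are libraries 1 to 3 and the bars give the mean ± SD. In 7 panels the C/D points lie below all Gel/S points, and in the Mars2 panel 3.94 to 4.60 FPKM in C/D lies above 2.09 to 2.70 FPKM in Gel/S.

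The other 13 cytosolic genes did not pass. Eprs, which charges both glutamate and proline tRNA, was the nearest, at -0.26 ± 0.0938 (edgeR adjusted p = 0.0576). It had 8.33, 8.42 and 9.20 FPKM in C/D 1 to 3, against 11.9, 9.65 and 10.5 FPKM in Gel/S 1 to 3, with no overlap. Nars, the asparaginyl-tRNA synthetase, gave -0.22 ± 0.0841 (edgeR adjusted p = 0.0676). Nars also did not overlap, at 51.2, 47.6 and 52.3 FPKM in C/D 1 to 3, against 64.8, 57.8 and 59.0 FPKM in Gel/S 1 to 3. Kars (lysine), Tars (threonine), Qars (glutamine) and Lars (leucine) had log2 fold changes of -0.18, -0.17, -0.17 and -0.14. Farsb, the beta subunit of the phenylalanine enzyme, Mars (methionine) and Gars (glycine) had -0.11, -0.09 and -0.07. Cars (cysteine), Farsa, the alpha subunit of the phenylalanine enzyme, Sars (serine) and Rars (arginine) had 0.01, 0.02, 0.04 and 0.13, and each of these 4 turned to a negative value under at least 1 other scaling, among them limma on TPM. Among these 13 genes, edgeR adjusted p-values ran from 0.0576 to 0.966.

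Genes fell both inside and outside the multi-synthetase complex. Of its 8 synthetases, 2 fell (Iars and Dars), and their median log2 fold change was -0.18, while of the 12 cytosolic genes outside it 5 fell, with a median of -0.20. The difference between these groups was not tested. Among all genes tested, 13.9% fell and 13.1% rose. The complex has 3 scaffold proteins without synthetase activity. Aimp2 had 8.14, 8.12 and 8.68 FPKM in C/D 1 to 3, against 10.3, 13.3 and 12.4 FPKM in Gel/S 1 to 3, and fell by 0.49 on the log2 scale (edgeR adjusted p = 0.0168). Aimp1 had 18.01, 17.6 and 19.4 FPKM in C/D 1 to 3, against 14.9, 16.2 and 16.0 FPKM in Gel/S 1 to 3, and rose by 0.27 (edgeR adjusted p = 0.0344). Eef1e1 had a log2 fold change of 0.06 (edgeR adjusted p = 0.734).

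The synthetases fall into 2 structural classes with unrelated catalytic folds. Of 18 class I genes, 4 fell (Iars, Wars, Vars and Yars) and 1 rose (Mars2), at a median of -0.16 on the log2 scale. Of 17 class II genes, 3 fell (Hars, Aars and Dars), with a median of -0.11. The shares among all genes tested were 13.9% lower and 13.1% higher. Eprs joins a domain of each class and was counted apart.

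Of 12 synthetase genes listed as ATF4-linked, 4 fell and 0 rose, and their median log2 fold change was -0.20. Of the other 8 cytosolic genes, 3 fell and 0 rose, with a median of -0.18. By the same test, 13.9% of all genes fell and 13.1% rose. Of the 5 genes with the C/EBP-ATF core printed above, Aars, Iars and Yars fell, while Gars (-0.07) and Tars (-0.17) did not pass. Dars fell without a core in its window, and the other cytosolic genes with a window and no core did not pass. A link between core and call was not tested. Hars, Wars and Vars, which also fell, were not among the genes with a window, so nothing is given on the core for them. Atf4 itself had 71.6, 70.2 and 80.0 FPKM in C/D 1 to 3, against 72.0, 98.3 and 87.2 FPKM in Gel/S 1 to 3, so its groups overlapped (log2 fold change -0.17, edgeR adjusted p = 0.284). Of 7 tested genes of the list that holds Atf4 and the eIF2 kinases, 0 changed by edgeR, with 1 at an unadjusted p under 0.05 (4800 of 11708 among all genes). That gene was Eif2ak1, the haem-regulated eIF2 kinase, at -0.33 (edgeR adjusted p = 0.0525).

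Of 29 tested ATF4 targets outside the synthetases, 7 fell and 3 rose, where 13.9% of all genes fell and 13.1% rose, and their median was -0.09 on the log2 scale. Ppp1r15a, which directs the phosphatase that resets eIF2, had 24.7, 25.7 and 28.0 FPKM in C/D 1 to 3, against 40.7, 43.5 and 45.6 FPKM in Gel/S 1 to 3, and fell by 0.69 on the log2 scale (edgeR adjusted p = 0.000439). Slc1a5 fell by 0.57 and Psat1, an enzyme of serine synthesis, by 0.69 (edgeR adjusted p = 0.00101 and 0.00111). Cebpg, a C/EBP partner of ATF4, rose by 0.54 (edgeR adjusted p = 0.00111). Mthfd2, Slc7a5, Atf3 and Slc7a1 also fell, by 0.60, 0.98, 0.45 and 0.55 (edgeR adjusted p = 0.0016, 0.0020, 0.0073 and 0.019). Pck2 and Ddit4 also rose, by 0.38 and 0.43 (edgeR adjusted p = 0.0134 and 0.0196). Some common ATF4 readouts did not pass. Asns, the asparagine synthetase of amino acid metabolism, had -0.01 and the pseudokinase gene Trib3 0.38 (edgeR adjusted p = 0.935 and 0.193). The transcription factor gene Ddit3 had 0.19 and the tRNA exporter Xpot -0.24 (edgeR adjusted p = 0.539 and 0.107).

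The other 15 mitochondrial synthetase genes did not pass, with edgeR adjusted p-values from 0.0632 to 0.930. Aars2 (alanine) was the lowest. It had 1.598, 1.71 and 1.91 FPKM in C/D 1 to 3, against 2.42, 2.28 and 2.27 FPKM in Gel/S 1 to 3. Its groups did not overlap, and the fitted change was -0.37 on the log2 scale (SE 0.137; edgeR adjusted p = 0.0632). Pars2 (proline), Rars2 (arginine), Iars2 (isoleucine), Wars2 (tryptophan) and Cars2 (cysteine) had -0.27, -0.24, -0.22, -0.21 and -0.19. Yars2 (tyrosine), Fars2 (phenylalanine), Sars2 (serine) and Nars2 (asparagine) had -0.06, -0.05, -0.02 and 0.02, and the sign of each turned under at least 1 alternative. Tars2 (threonine), Lars2 (leucine), Hars2 (histidine), Ears2 (glutamate) and Vars2 (valine) had 0.09, 0.13, 0.19, 0.20 and 0.24, of which Tars2 turned negative with limma on TPM. These genes were read less deeply, with a mean of 114 to 906 counts per library (median 402) against 870 to 4135 (median 1701) for the cytosolic genes. Their standard errors were wider, at a median of 0.120 against 0.0844, so shifts of the cytosolic size were harder to detect among them. The median over all genes tested was 0.1165. The shares of all genes that fell or rose thus come from genes with wider errors, at the median, than the cytosolic synthetases.

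Cytosolic and mitochondrial partners for the same amino acid can be set side by side within a library, where the scaling between libraries cancels. The log2 ratio of cytosolic over mitochondrial FPKM was lower in C/D for 13 of 17 pairs. In 7 pairs, those for methionine, histidine, valine, isoleucine, threonine, tryptophan and asparagine, every C/D ratio was below every Gel/S ratio. No pair had every C/D ratio above. How often the ratio of other gene pairs was lower, or separated in this way, was not counted. With 3 libraries per group the two-sided exact permutation test cannot go below p = 0.1, which these 7 reached, and the smallest value adjusted over the 17 pairs was 0.243, so none passed. Some pairs share a gene, since Eprs and Fars2 each enter more than once.

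The Mars over Mars2 ratio differed most. It was 2.60, 2.52 and 2.51 on the log2 scale in C/D 1 to 3, against 3.77, 3.26 and 3.43 in Gel/S 1 to 3, a difference of -0.95. Mars had 23.9, 24.5 and 26.2 FPKM in C/D 1 to 3, against 28.6, 25.9 and 27.2 FPKM in Gel/S 1 to 3, and these overlapped (edgeR adjusted p = 0.436).

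For histidine, the log2 ratio of Hars over Hars2 was 1.09, 1.44 and 1.18 in C/D 1 to 3, against 2.18, 1.84 and 1.96 in Gel/S 1 to 3. The difference was -0.76. Hars2 had 9.40, 9.13 and 9.87 FPKM in C/D 1 to 3, against 8.72, 8.68 and 8.29 FPKM in Gel/S 1 to 3. All C/D values of Hars2 were higher, but its log2 fold change of 0.19 did not pass (edgeR adjusted p = 0.129). These genes are transcribed away from each other, and in GENCODE M21 they overlap at their starts, which lie 197 bases apart. Hars shares 8.0% of its exon bases with Hars2, and Hars2 shares 4.6% with Hars. Without known strand use, reads there cannot be assigned to one or the other, and the table's gene length for Hars differs from that annotation.

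For valine, the log2 ratio of Vars over Vars2 was 2.37, 2.69 and 2.81 in C/D 1 to 3, against 3.14, 3.11 and 3.17 in Gel/S 1 to 3, a difference of -0.52. Vars2 had 6.39, 5.35 and 4.96 FPKM in C/D 1 to 3, against 5.07, 4.85 and 4.61 FPKM in Gel/S 1 to 3, which overlapped. For isoleucine the difference was -0.28, and for threonine -0.26. Iars2 had 5.32, 4.87 and 5.93 FPKM in C/D 1 to 3, against 7.29, 5.75 and 6.33 FPKM in Gel/S 1 to 3, and 24.2% of its exon bases are shared with genes on the other strand, chiefly Rab3gap2.

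The tryptophan and asparagine ratios both differed by -0.25. Wars2 had 2.64, 2.42 and 2.36 FPKM in C/D 1 to 3, against 3.23, 2.91 and 2.67 FPKM in Gel/S 1 to 3. It was lower in every C/D library, like its cytosolic partner Wars, without passing (edgeR adjusted p = 0.212). For alanine the ratio differed by -0.05, and both Aars and Aars2 were lower in all C/D libraries. For tyrosine the difference was -0.22. Yars2 had 9.18, 10.6 and 10.8 FPKM in C/D 1 to 3, against 10.2, 11.2 and 11.3 FPKM in Gel/S 1 to 3, which overlapped. Arginine had the highest difference, 0.38. Dars has no partner among these 36 genes.

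**Figure D3:**
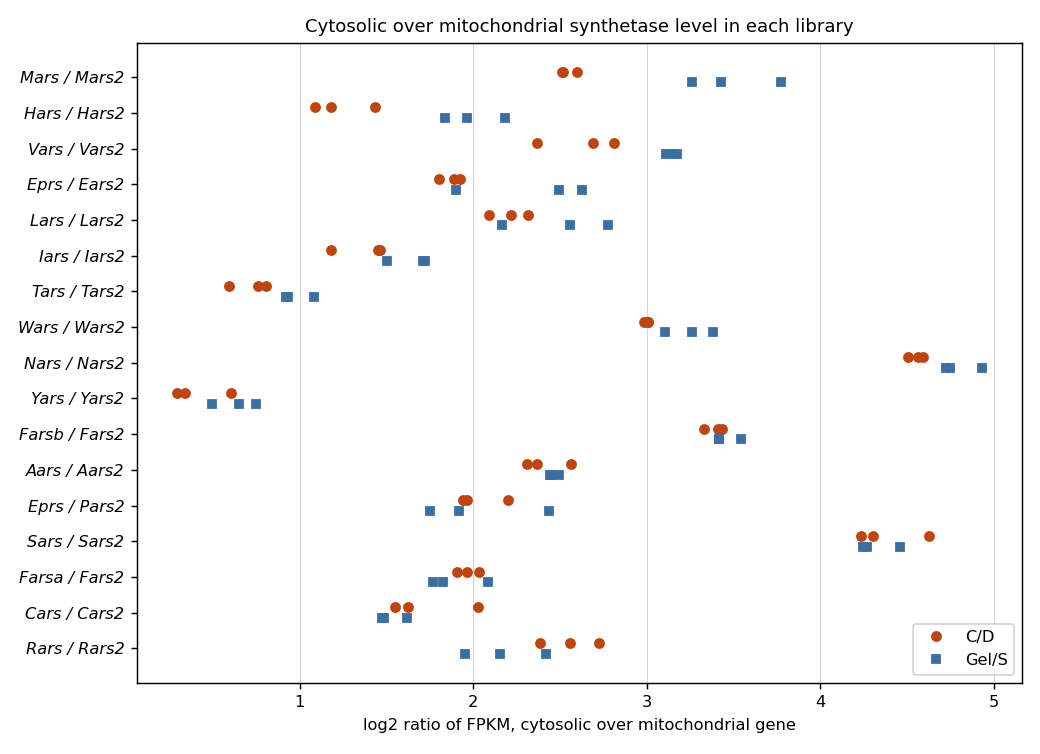
Log2 ratio of FPKM, cytosolic over mitochondrial gene (horizontal axis), for the 17 pairs, with C/D as circles above and Gel/S as squares below in each row, 1 symbol per library. The Mars over Mars2 circles lie at 2.51 to 2.60 and its squares at 3.26 to 3.77; rows run from the lowest to the highest difference, with Rars over Rars2 at the bottom.

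Summed over the 20 cytosolic genes, the level was 528.6, 513.8 and 527.9 FPKM in C/D 1 to 3, against 623.6, 602.1 and 594.2 FPKM in Gel/S 1 to 3. The sum over the 16 mitochondrial genes was 77.8, 78.7 and 78.0 FPKM in C/D 1 to 3, against 82.8, 80.2 and 77.5 FPKM in Gel/S 1 to 3. The cytosolic sums did not overlap between the groups and the mitochondrial sums did. The ratio of the sums, which no scaling between libraries can move, was 6.79, 6.53 and 6.77 in C/D 1 to 3, against 7.53, 7.51 and 7.67 in Gel/S 1 to 3. These sums describe the libraries and carry no test.

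In level, cytosolic genes had means of 9.53 to 55.4 FPKM over the 6 libraries, with a median of 26.1, and mitochondrial genes 2.03 to 10.6 FPKM, with a median of 3.81. Nars averaged 50.3 ± 2.48 FPKM in C/D and 60.5 ± 3.78 FPKM in Gel/S (SD, n = 3 each). Sars averaged 52.6 ± 2.53 FPKM in C/D and 52.7 ± 3.57 FPKM in Gel/S, and Rars had 52.5 to 53.5 FPKM in C/D and 47.8 to 53.4 FPKM in Gel/S. These 3 had the highest means of the cytosolic genes over the 6 libraries. In C/D every Nars value was below every Rars value, while Sars overlapped with both. Cars and Eprs had the lowest means of the cytosolic genes over the 6 libraries, though in C/D Aars (9.25 FPKM) was below Cars. Cars and Eprs averaged 9.41 ± 0.732 and 8.65 ± 0.479 FPKM in C/D, and 9.64 ± 0.984 and 10.7 ± 1.152 FPKM in Gel/S. Both overlap in level with Yars2, the highest mitochondrial gene, at 10.2 ± 0.871 FPKM in C/D and 10.9 ± 0.576 FPKM in Gel/S. FPKM divides by the listed gene length, which is the union of all annotated exons for 33 of the 36 genes; for Eprs it is 18102 bases, and how much of that its transcripts use was not tested.

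Genes that work next to the synthetases were counted against the same shares of all genes, 13.1% higher and 13.9% lower. Of 10 tested genes for other steps of charging and proofreading, 1 rose, Prorsd1, a homologue of bacterial proteins that edit mischarged tRNA (0.51, edgeR adjusted p = 0.0127). Another, Tarsl2, a second cytosolic threonyl-tRNA synthetase, fell by 0.60 (edgeR adjusted p = 0.0175). Tarsl2 had 0.867, 0.756 and 0.888 FPKM in C/D 1 to 3, against 1.42, 1.16 and 1.35 FPKM in Gel/S 1 to 3. Of 6 cytosolic elongation factor genes, 2 fell: Eif5a by 0.46 and Eef1a1, which brings charged tRNA to the ribosome, by 0.38 (edgeR adjusted p = 0.00424 and 0.0346). Of 10 mitochondrial translation factor genes, 2 rose, Guf1 (0.49, edgeR adjusted p = 0.00277) and Mtrf1l (0.57, edgeR adjusted p = 0.0192). There Tufm, the mitochondrial counterpart of Eef1a1, fell by 0.40 (edgeR adjusted p = 0.00439).

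Genes of tRNA maturation are given beside the shares of all genes, of which 13.1% rose and 13.9% fell. Of 16 genes listed for mitochondrial tRNA, whether or not they also serve other tRNA, 2 rose. These were the methyltransferase Trmt61b (0.76, edgeR adjusted p = 0.0259) and Hsd17b10, a subunit of mitochondrial RNase P (0.34, edgeR adjusted p = 0.0381). Of 18 tested genes of nuclear tRNA maturation and export, 2 fell, the kinase Clp1 by 0.30 and the RNase P subunit Pop1 by 0.42 (edgeR adjusted p = 0.0486 and 0.0498). The medians of the charging, mitochondrial factor, mitochondrial maturation and nuclear maturation lists were 0.04, 0.05, 0.11 and 0.05, and that of the cytosolic elongation factors was -0.18, beside 0.01 for all genes tested.

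**Figure D4:**
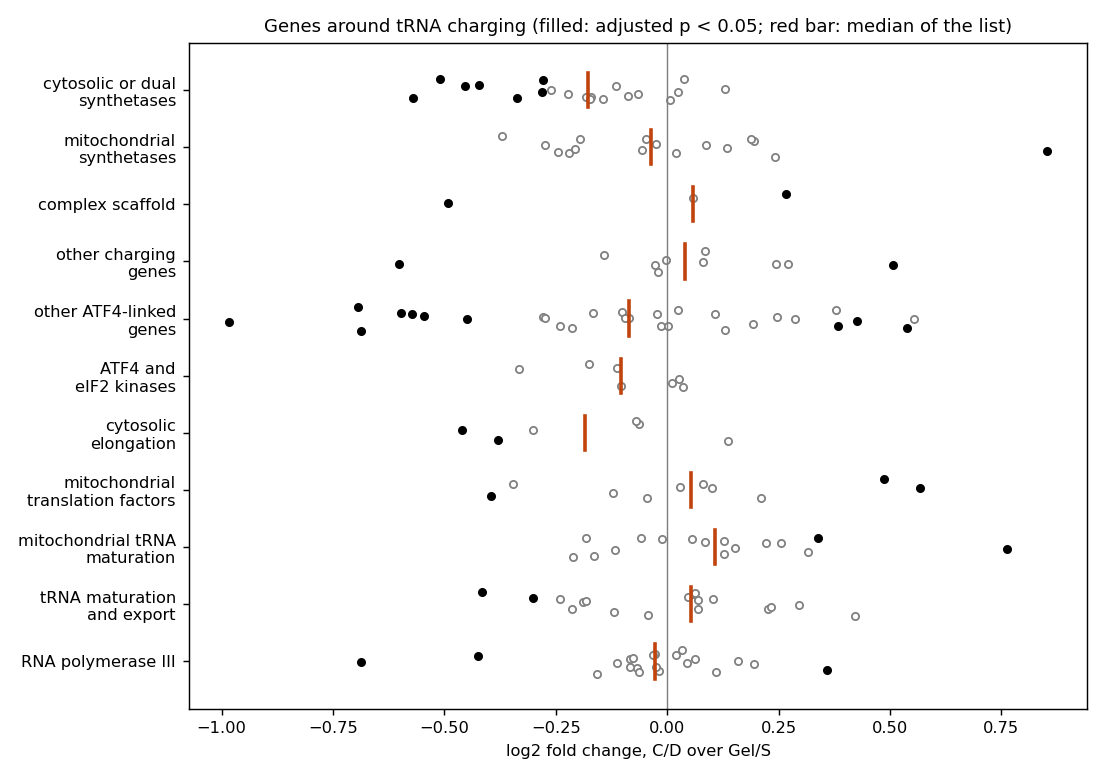
Log2 fold change (horizontal axis, C/D over Gel/S) of the synthetases and of genes around tRNA charging, 1 point per gene, filled at an adjusted p under 0.05 by edgeR; the red bar is each list's median. The bar stands at -0.18 for the cytosolic synthetases and -0.04 for the mitochondrial ones.

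The authors' deposited table also holds their own comparison. With its sign turned to C/D over Gel/S, the authors' deposited table has 9 cytosolic synthetases lower and 0 higher at its adjusted p under 0.05, and 0 mitochondrial ones lower and 1 higher. The 7 genes that fell by edgeR and Mars2 are among them. In the authors' deposited table the 2 further genes are Eprs and Nars. The share of all genes past the threshold in their comparison was not counted, and the edgeR shares above do not apply to it.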

How the data were processed

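The authors deposited a table of raw counts per gene and library, without normalization per the file headers, and FPKM, in which the authors divided counts by the listed gene length and a scaled library total. The log2 fold changes and adjusted p-values in the authors' deposited table are their own comparison of Gel/S over C/D, by a test that the sources used here do not name. The builds named are GRCm38 and mm10, per the submitters' processing notes. Which aligner, counter and annotation were used, and whether strand was kept, is not stated in the sources used here. Libraries held 12818831 to 16525699 counts.

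Dates in 27 symbols were turned back into gene names from the gene IDs, and 100 symbols with several entries were summed. Genes with a mean of at least 1 FPKM over the 6 libraries (11708) were tested with the quasi-likelihood test of edgeR 4.0.16 (R 4.3.3) and TMM factors, with Benjamini-Hochberg adjustment over all of them and a threshold of 0.05. Each SE is the size of the log2 fold change divided by the root of F. Ratios between partners were tested by exact permutation in scipy 1.17.1. Alternatives used limma 3.58.1, DESeq2 1.42.0, other scalings and filters, and each library left out in turn. The pipeline was tested on simulated data. There the edgeR test called 26.9% of genes changed 1.3-fold, 65.7% of those changed 1.5-fold and 97.0% of those changed 2-fold. Of 11508 unchanged genes it called 10.

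All 36 members are named. Values per library are given for those past the threshold and their partners for the same amino acid, and for Eprs and Nars, added after their values were seen. Other genes are the 3 with the smallest adjusted p past the threshold in each list, or the 2 with the smallest p. A few fixed ones, every ATF4 target past the threshold and every mitochondrial tRNA gene past it are also named. The members and lists were chosen with earlier results of these data known.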

Additional observations from a re-analysis of the deposited data

How the results depend on the processing

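Over 16 alternatives, Hars, Iars, Wars, Aars and Mars2 kept their calls in all, with adjusted p-values of at most 0.0253, 0.0323, 0.0229, 0.0270 and 0.0152. Dars lost its call in 5, Vars in 5 and Yars in 3. In all, of 576 results (36 genes by 16 alternatives), 516 kept direction and side of the threshold, 13 lost a call, 10 gained one and 37 changed sign, the last only in genes that had not passed. Mitochondrial genes had a mean of 114 to 906 counts per library and cytosolic genes 870 to 4135.

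The number of cytosolic genes that fell was 8 with DESeq2, 8 with no filter on low values and 9 with filterByExpr, and 4 to 9 when each library was left out in turn. Among all genes 1659 of 11708 fell with DESeq2, 2237 of 23858 with no filter and 1904 of 13308 with filterByExpr. With each library left out in turn, 876 to 2089 of 11708 fell. Under the same omissions the cytosolic median ranged from -0.22 to -0.17, the number of mitochondrial genes that fell from 0 to 1 (Iars2, without Gel/S 2) and the number that rose from 1 to 2 (with Lars2, without Gel/S 1). With filterByExpr 1 mitochondrial gene, Aars2, fell. The cytosolic median was -0.23 with no filter, -0.22 with limma on log2(FPKM + 0.1) and -0.30 with limma on log2(TPM + 1), and the mitochondrial median was -0.083 with no filter and -0.15 on TPM.

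Replicate numbers did not pair the libraries: the correlations of same-numbered deviations were -0.0568, -0.0589 and 0.0454, and 0 of 3 correlated best with its own number. With the replicate block 6 cytosolic genes fell and 1 mitochondrial gene rose. Among all genes 1302 fell and 1242 rose with that block.

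Changes of sign were as follows. Cars was -0.0388 with no filter, -0.0211 with filterByExpr, -0.0289 and -0.0314 with limma on FPKM (pseudocounts of 1 and 0.1) and -0.117 on TPM. Farsa was -0.0220, -0.00374, -0.0155, -0.0163 and -0.105 under the same 5 settings, and Nars2 -0.0283, -0.00994, -0.0130, -0.0165 and -0.0922. Sars was -0.00946 with no filter, -0.00353 and -0.00357 with limma on FPKM and -0.0938 on TPM. On TPM, Rars was -0.00259 and Tars2 -0.0421. With upper-quartile factors Sars2 was 1.79e-05. Leaving out each library in turn gave -0.0785 to 0.0796 for Cars, -0.0276 to 0.0873 for Farsa, -0.0206 to 0.0905 for Sars, -0.0996 to 0.00575 for Fars2, -0.0627 to 0.104 for Nars2, -0.142 to 0.105 for Sars2 and -0.107 to 0.00693 for Yars2. The cause was not tested.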

Other observations

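RNA polymerase III transcribes the tRNA genes, and of its 21 genes tested 2 fell, 1 rose and 18 did not pass, where 13.9% of all genes fell and 13.1% rose. Their median was -0.03 on the log2 scale. Polr3g and Polr3gl encode alternative forms of the same subunit. Polr3g had 3.98, 3.98 and 4.17 FPKM in C/D 1 to 3, against 6.85, 6.90 and 6.38 FPKM in Gel/S 1 to 3, and fell by 0.69 on the log2 scale (edgeR adjusted p = 0.00111). Polr3gl had 58.9, 61.2 and 63.3 FPKM in C/D 1 to 3, against 52.4, 43.9 and 51.1 FPKM in Gel/S 1 to 3, and rose by 0.36 (edgeR adjusted p = 0.0115). Gtf3c5, a subunit of the factor that binds inside tRNA genes, fell by 0.42 (edgeR adjusted p = 0.0206).

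Of the 22 tRNA genes of the mitochondrial genome, 18 were tested and 4 rose (13.1% of all genes rose), mt-Tp, mt-Tn, mt-Tw and mt-Tc. The median log2 fold change over the 18 was 0.58. Some of the 18 had few reads, such as mt-Tr with a mean of 1.33 counts per library (SE 1.256). The 4 that rose had means of 265.5 to 1235 counts. Among them mt-Tc was near the threshold (edgeR adjusted p = 0.0474). Its groups overlapped, at 826 to 1533 FPKM in C/D and 740.5 to 964.6 FPKM in Gel/S. The entry mt-Tp had 1237, 1561 and 1561 FPKM in C/D 1 to 3, against 834.1, 1070 and 984.6 FPKM in Gel/S 1 to 3 (log2 fold change 0.64, edgeR adjusted p = 0.00327). These genes are far shorter than a usual library fragment, so their counts may include reads of neighbouring mitochondrial transcripts, and the share of all mitochondrially encoded counts moved with the groups. Its part in this result was not tested.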
